A study of Mus musculus with 15 samples.

Results

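YAP and TEAD genes were read in mouse granulosa cells after knockdown of Foxl2 or Esr2: the coactivators Yap1 and Wwtr1 (which encodes TAZ), their DNA-binding partner Tead1, the target genes Ctgf, Cyr61, Ankrd1 and Axl, and 3 genes that act back on the pathway, Amotl2, Ajuba and Lats2. The 10 genes were found by symbol among the 24490 genes of the count files, and all 10 were among the 14907 genes that passed the filter on low counts. They were chosen by their known role, with results of these same libraries already known, so their levels and calls below are a description and no independent evidence. After Foxl2 siRNA, Ctgf, Cyr61, Ankrd1, Amotl2, Ajuba, Tead1 and Wwtr1 were higher than with scrambled siRNA at 54 h, and Yap1 was lower.

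The Hippo pathway is a kinase chain that answers to cell contact, cell shape and tension. Its last kinases, LATS1 and LATS2, phosphorylate YAP and TAZ, which then stay in the cytoplasm or are degraded. Unphosphorylated YAP and TAZ enter the nucleus, bind TEAD factors and switch on genes such as Ctgf and Cyr61, which encode secreted matrix proteins. Several targets, among them Amotl2 and Lats2, encode inhibitors of YAP, so the pathway has negative feedback. In the ovary, granulosa cells are the somatic cells around the oocyte, and Hippo signalling is known to bear on follicle growth. FOXL2 is the forkhead factor that maintains granulosa cell identity, and ESR2 is oestrogen receptor beta.

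Primary granulosa cells of 8-week-old RjOrl:SWISS female mice were transfected with 30 pmol of siRNA. The sample titles give 5 groups of 3 libraries: siRNA against Foxl2 for 30 h or 54 h, against Esr2 for 30 h, and a scrambled siRNA for 30 h or 54 h. Each targeted siRNA was a pool of 3, and the labels list the same catalogue numbers for both targets, so the pool behind each library is not known here. The extract protocol names 30 h as its only time, so the 54 h groups rest on the titles. Separate cultures or animals are not named for the 3 libraries of a group, so the tests measure library-to-library spread only, which may be technical. Gene counts lay between 45.0 M and 59.6 M reads per library, and the lowest count of any of the 10 genes in any library was 4974.

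Foxl2 stood at 33.8, 28.4 and 65.4 CPM (counts-per-million, scaled by TMM) after Foxl2 siRNA at 30 h, against 174, 152 and 143 CPM with scrambled siRNA. At 54 h it stood at 33.7, 57.5 and 25.2 CPM after Foxl2 siRNA, against 189, 154 and 166 CPM with scrambled siRNA. The third Foxl2 siRNA library at 30 h and the second at 54 h thus kept the most Foxl2 of their groups. Esr2 stood at 12.9, 14.5 and 13.9 CPM after Esr2 siRNA, against 60.6, 60.4 and 61.6 CPM with scrambled siRNA at 30 h. Esr2 was also low after Foxl2 siRNA at 30 h, at 29.2, 25.0 and 45.5 CPM against the same scrambled libraries, a difference that was not called (edgeR adjusted p = 0.109). At 54 h it was lower after Foxl2 siRNA, at 18.0, 49.3 and 15.7 CPM, against 74.2, 64.9 and 67.3 CPM with scrambled siRNA. After Esr2 siRNA, Foxl2 stood at 112, 128 and 114 CPM, below the 30 h scrambled libraries given above, and was not called (edgeR adjusted p = 0.539). The second Esr2 siRNA library stood apart from the other two in several of the 10 genes, as given below.

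TEAD factors bind the DNA core GGAATG, and the promoters are shown because most of these genes are known TEAD targets. In RefSeq (GRCm38.p6), 8 of the 10 genes had a promoter entry running from 250 bases before the transcription start to 50 bases after it; Ctgf and Tead1 had none. GGAATG or its reverse complement CATTCC, searched on both strands, occurred in the promoter of 8 of these 8 genes, and in 16.6% of all 27025 genes with a promoter entry. The 250 bases before the start of 3 of the genes read as follows, 5′ to 3′ along the gene, with the TEAD core in capitals.
Cyr61 (chr3:145649986-145650235, minus strand): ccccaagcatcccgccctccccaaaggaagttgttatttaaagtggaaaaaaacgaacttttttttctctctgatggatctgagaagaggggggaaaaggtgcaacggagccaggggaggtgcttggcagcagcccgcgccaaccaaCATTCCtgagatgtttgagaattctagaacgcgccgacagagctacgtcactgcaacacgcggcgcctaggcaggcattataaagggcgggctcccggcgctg
Ankrd1 (chr19:36119845-36120094, minus strand): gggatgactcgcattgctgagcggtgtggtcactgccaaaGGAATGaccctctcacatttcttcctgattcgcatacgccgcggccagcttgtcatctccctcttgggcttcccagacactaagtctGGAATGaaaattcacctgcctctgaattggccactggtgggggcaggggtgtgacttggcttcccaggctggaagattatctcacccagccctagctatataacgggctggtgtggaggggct
Amotl2 (chr9:102717554-102717803, plus strand): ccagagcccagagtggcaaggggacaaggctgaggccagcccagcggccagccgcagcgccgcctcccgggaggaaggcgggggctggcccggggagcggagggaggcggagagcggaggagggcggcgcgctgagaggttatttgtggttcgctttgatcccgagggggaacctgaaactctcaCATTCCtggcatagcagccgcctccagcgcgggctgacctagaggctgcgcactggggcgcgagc
The core lay 103 bases before the start in Cyr61, 65 bases before it in Amotl2, and 210 and 123 bases before it in Ankrd1.

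For the other 5 genes, 26 bases around each core are shown, again with the core in capitals and along the gene's strand. Ajuba carried 2 cores, 186 and 164 bases before its start.
Ajuba (chr14:54577832-54577857, minus strand): ttgatggataCATTCCacagtgcccc
Ajuba (chr14:54577810-54577835, minus strand): cccctccgcgCATTCCaactgtaaac
Axl (chr7:25788951-25788976, minus strand): aaattctacaGGAATGtttaccagac
Lats2 (chr14:57746104-57746129, minus strand): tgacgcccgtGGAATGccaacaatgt
Yap1 (chr9:8004722-8004747, minus strand): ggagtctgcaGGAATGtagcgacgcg
Wwtr1 (chr3:57576031-57576056, minus strand): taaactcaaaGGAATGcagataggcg
The core lay 233 bases before the start in Axl, 141 bases before it in Yap1 and 5 bases after it in Lats2. In Wwtr1 it lay 136 or 170 bases before the start, depending on which of 2 RefSeq starts is used. Lats2 also has 2 RefSeq starts, and the window of the other one holds no core, so 9 of the 10 promoter windows of the 8 genes held it. Of the genes of the conserved YAP/TAZ target signature outside the 10, 2 of 10 with a promoter entry held the core. Among the other lists read below, 4 of 6 other TEAD factors and cofactors and 6 of 15 SRF, MRTF and actin genes held it. So did 3 of 14 Hippo kinases and scaffolds, 1 of 8 junction and LIM regulators and 0 of 1 other CCN genes. A match is a description of the letters and does not show binding.

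**Figure D1:**
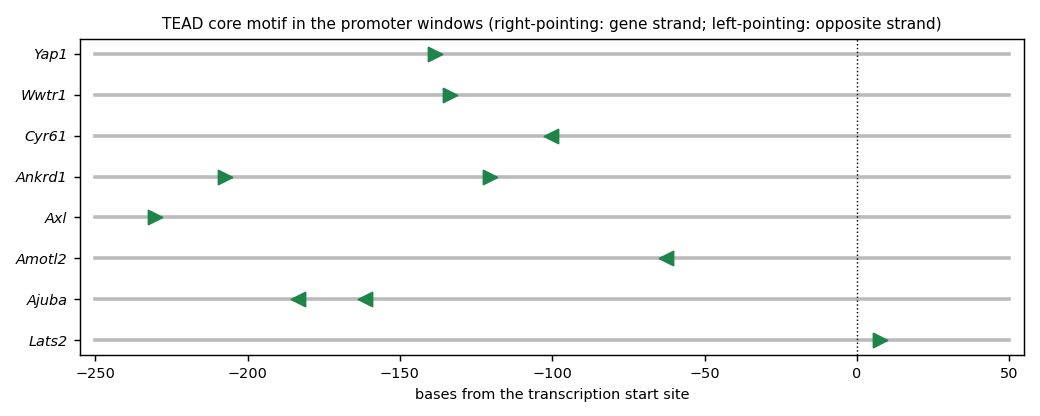
Position of each TEAD core (triangles) in the promoter window of 8 genes, in bases from the transcription start; a triangle that points right lies on the gene's strand. The cores of Ankrd1 lie 210 and 123 bases before the start, and the Lats2 core lies 5 bases after it.

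Per kilobase of merged exon, with scrambled siRNA at 30 h, Axl was the most abundant at 497 ± 22 CPM per kb (SD, n = 3). Ankrd1 followed at 258 ± 3.0, Ctgf at 213 ± 28, Cyr61 at 191 ± 22 and Amotl2 at 153 ± 2.8 CPM per kb. The levels of Ctgf and Cyr61 overlapped between libraries, so their order is not resolved. Ajuba stood at 73.0 ± 3.3 CPM per kb, and Wwtr1 at 51.7 ± 1.1, above Tead1 at 45.0 ± 1.1 and Yap1 at 44.1 ± 1.3, which overlapped each other. Lats2 was the least abundant at 30.5 ± 2.1 CPM per kb. Yap1, Wwtr1 and Tead1 were thus all expressed, at lower levels than most of their targets.

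**Figure D2:**
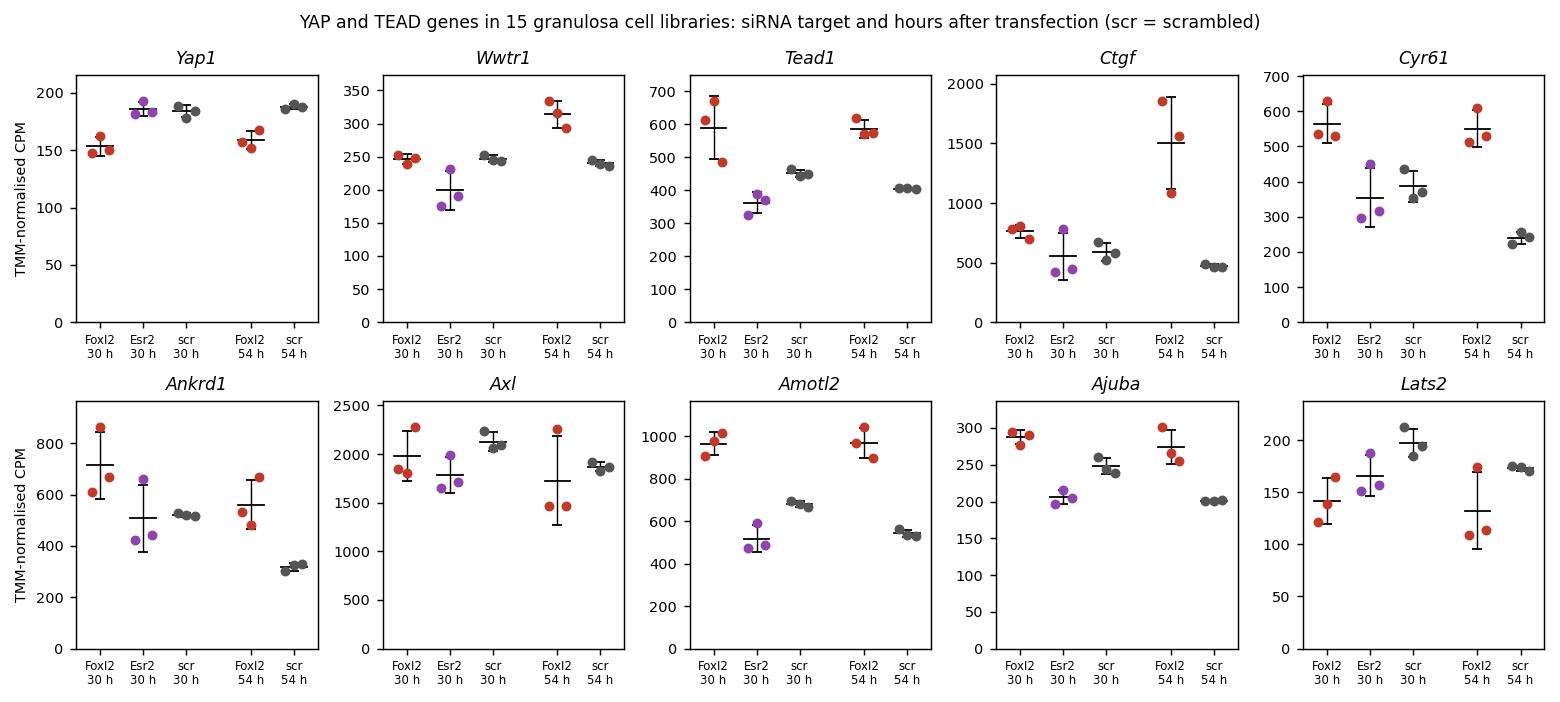
TMM-normalised CPM of the 10 genes in each of the 15 libraries (points, in replicate order) by siRNA and time; bars give the mean and SD of 3 libraries. Ctgf after Foxl2 siRNA at 54 h lies between 1088 and 1856 CPM, above all other libraries, and the scrambled libraries of Cyr61 and Ankrd1 are lower at 54 h than at 30 h.

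Changes were tested across all genes with edgeR's quasi-likelihood test, and the threshold for a call was an adjusted p of 0.05. In bulk RNA, fewer cells of a type and less RNA per cell cannot be told apart. At 54 h after Foxl2 siRNA, 7 of the 10 genes were called higher and 1 lower, where 18.5% of all genes tested were called higher and 20.3% lower. The 7 genes called higher were also those whose libraries lay wholly above the scrambled ones, a pattern that 23.5% of all genes showed. The median log2 change of the 10 genes was 0.49, against -0.01 over all genes tested. At 30 h, 4 genes were called higher and 1 lower, where 6.34% and 6.65% of all genes were called in those directions. The libraries of 6 genes lay wholly above the scrambled ones at 30 h, as did those of 15.3% of all genes. The median log2 change of the 10 genes at 30 h was 0.29, against -0.01 over all genes.

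Markers listed for surface epithelium and mesothelium moved in the same libraries. Of the 11 listed, 10 had counts, and Muc16 was not found by symbol in the count files. The 10 summed to 1019.7 to 1102 CPM after Foxl2 siRNA at 54 h, against 413 to 486 CPM with scrambled siRNA. At 30 h they summed to 629 to 692 CPM after Foxl2 siRNA, against 450.4 to 474 CPM with scrambled siRNA. Called higher were 8 of these 10 markers at 54 h and 4 at 30 h after Foxl2 siRNA, and 0 were called lower. Of all genes, 18.5% were called higher at 54 h and 6.34% at 30 h. Among the markers, Msln averaged 126 ± 20 CPM after Foxl2 siRNA at 54 h and 20.5 ± 4.3 CPM with scrambled siRNA (SD, n = 3 each). After Esr2 siRNA the sum was 482 to 487 CPM. With scrambled siRNA at 30 h, the largest parts of the sum were Krt8, Krt18 and Wt1, at means of 199, 130 and 96.4 CPM. Msln averaged 13.2 CPM there. Whether the markers rose in granulosa cells or came from other cells was not tested. The part of such cells in the change of the 10 genes was not tested.

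Ctgf encodes CCN2, a secreted matricellular protein and a common readout of YAP activity. After Foxl2 siRNA at 54 h it had 1856, 1088 and 1562 CPM in the 3 libraries, against 488, 467 and 465 CPM with scrambled siRNA. Even the lowest Foxl2 siRNA library was thus above every scrambled one, and it was the library that kept the most Foxl2. The log2 change was 1.67 ± 0.22 (SE), a 3.17-fold higher level. At 30 h Ctgf had 784, 805 and 701 CPM after Foxl2 siRNA, against 671, 519.8 and 580 CPM with scrambled siRNA. The groups did not overlap there, but the log2 change of 0.37 ± 0.22 was not called.

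Cyr61 encodes CCN1, the sister protein of CCN2. It had 513, 611 and 528 CPM after Foxl2 siRNA at 54 h, against 222, 256 and 242 CPM with scrambled siRNA. This was a log2 change of 1.20 ± 0.15, or 2.30-fold, with no overlap. Its 30 h levels were 534, 629 and 531 CPM after Foxl2 siRNA, against 436, 354 and 369.9 CPM with scrambled siRNA, and the log2 change was 0.55 ± 0.14. The Foxl2 siRNA libraries overlapped between the 2 times, and the scrambled libraries did not. Unlike for Ctgf, the library that kept the most Foxl2 was the highest Foxl2 siRNA library at 54 h. At 30 h it was the lowest by a small margin. The call at 30 h held in 2 of the 6 fits that left out 1 library of either group, with log2 changes of 0.46 to 0.65.

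Ankrd1 encodes an ankyrin-repeat protein of the sarcomere and nucleus that is a strong YAP target in many cells. It had 533, 483 and 667 CPM after Foxl2 siRNA at 54 h, against 301, 326 and 330.1 CPM with scrambled siRNA, a log2 change of 0.82 ± 0.17. At 30 h it had 610.2, 863 and 669.6 CPM after Foxl2 siRNA, against 527, 520.4 and 515 CPM with scrambled siRNA. The 3 libraries of Foxl2 siRNA were above all scrambled ones at both times. The log2 change at 30 h, 0.46 ± 0.17, was not called by edgeR (adjusted p = 0.096) and was called by DESeq2 (adjusted p = 0.0456).

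Axl encodes a receptor tyrosine kinase for GAS6 and is a YAP target in several cancers. It had 1461, 2254 and 1466 CPM after Foxl2 siRNA at 54 h, against 1924, 1826 and 1864 CPM with scrambled siRNA. The groups overlapped: the library with the most Foxl2 left was above all scrambled ones, and the other two were below them. At 30 h it had 1852, 1806 and 2275 CPM after Foxl2 siRNA, against 2238, 2058 and 2091 CPM with scrambled siRNA, again with the highest value in the library that kept the most Foxl2. The log2 changes of -0.12 ± 0.15 at 54 h and -0.11 ± 0.15 at 30 h were not called. Without the second Foxl2 siRNA library, Axl was called lower at 54 h, with a log2 change of -0.35 and an edgeR adjusted p of 0.0174. This was the call of 1 of the 6 fits that left out 1 library, with edgeR adjusted p up to 0.976. The fit without that library also called more of all genes, 6752 against 5787.

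Amotl2 encodes a motin, a junction protein that holds YAP in the cytoplasm and is itself a YAP target. It had 966, 1041 and 897 CPM after Foxl2 siRNA at 54 h, against 563, 533 and 532 CPM with scrambled siRNA. Levels at 30 h were 905, 975 and 1013 CPM after Foxl2 siRNA, against 693, 679.8 and 669 CPM with scrambled siRNA. Every Foxl2 siRNA library was above every scrambled one at both times, with little spread within groups. Among the Foxl2 siRNA libraries, the one that kept the most Foxl2 had the highest Amotl2 at either time, the reverse of Ctgf. The log2 changes were 0.84 ± 0.09 at 54 h and 0.50 ± 0.09 at 30 h. Amotl2 was called higher at both times in all fits that left out 1 library.

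Ajuba encodes a LIM protein that binds and restrains LATS kinases. It had 301, 266 and 255 CPM after Foxl2 siRNA at 54 h, against 201, 200.4 and 202 CPM with scrambled siRNA. The log2 change of 0.45 ± 0.06 was called, and all 3 libraries were above the scrambled ones. At 30 h it had 294, 277 and 291 CPM after Foxl2 siRNA, against 261, 245 and 239 CPM with scrambled siRNA. This smaller log2 change of 0.21 ± 0.06 had an edgeR adjusted p of 0.0481, and it was called in 0 of the 6 fits that left out 1 library (adjusted p from 0.0594 to 0.175), nor with edgeR fitted to the 6 libraries compared (adjusted p = 0.0794).

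Lats2 encodes the kinase that inactivates YAP, and is also a YAP target. It had 109, 175 and 114 CPM after Foxl2 siRNA at 54 h, against 175, 174 and 171 CPM with scrambled siRNA. Its levels at 30 h were 121, 139 and 165 CPM after Foxl2 siRNA, against 212, 185 and 195 CPM with scrambled siRNA. The groups did not overlap at 30 h, with all Foxl2 siRNA libraries lower, and overlapped at 54 h through the library that kept the most Foxl2. The log2 changes of -0.39 ± 0.16 at 54 h and -0.48 ± 0.16 at 30 h were not called by edgeR, while DESeq2 called Lats2 lower at 30 h (adjusted p = 0.0308). Without the library that kept the most Foxl2, Lats2 was called lower at either time. The log2 change was then -0.63 at 54 h (edgeR adjusted p = 0.00111) and -0.60 at 30 h (edgeR adjusted p = 0.0308). At each time Lats2 was called in 1 of the 6 fits that left out 1 library. The highest edgeR adjusted p was 0.257 at 54 h and 0.227 at 30 h. Without that library more of all genes were called too, 6752 against 5787 at 54 h and 3016 against 1936 at 30 h. Whether Lats2 followed the Foxl2 that was left was not tested. Lats2 thus had the opposite sign to Ctgf, Cyr61, Ankrd1 and Amotl2, although all are in the conserved YAP/TAZ target signature. Axl had the negative sign as well, at -0.12 ± 0.15 at 54 h and -0.11 ± 0.15 at 30 h. Neither Axl nor Lats2 was called by edgeR with all libraries.

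Yap1 had 157, 152 and 168 CPM after Foxl2 siRNA at 54 h, against 186, 190.3 and 188 CPM with scrambled siRNA. At 30 h Yap1 had 148, 163 and 150.2 CPM after Foxl2 siRNA, against 189, 178 and 184 CPM with scrambled siRNA. The coactivator's own mRNA was thus lower in every Foxl2 siRNA library, by a log2 change of -0.24 ± 0.05 at 54 h and -0.26 ± 0.05 at 30 h. At 54 h it was lowest in the library that kept the most Foxl2. At 30 h that library lay between the others. Yap1 was called lower at both times in all fits that left out 1 library, and missed the threshold at 30 h when edgeR was fitted to the 6 libraries compared (adjusted p = 0.0535). Its mRNA level does not report how much YAP was in the nucleus, which RNA counts do not measure.

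Wwtr1, which encodes the coactivator TAZ, had 334, 315 and 293 CPM after Foxl2 siRNA at 54 h, against 246, 239 and 236 CPM with scrambled siRNA. At 30 h Wwtr1 had 252, 239 and 248 CPM after Foxl2 siRNA, against 253, 244 and 243 CPM with scrambled siRNA. The groups overlapped at 30 h and did not at 54 h. The log2 change was 0.39 ± 0.09 at 54 h, which was called, and -0.0031 ± 0.09 at 30 h. The change at 54 h minus that at 30 h, 0.39 ± 0.12, was not called (edgeR adjusted p = 0.289).

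Tead1 encodes the DNA-binding partner of YAP and TAZ. It had 618, 570.4 and 573 CPM after Foxl2 siRNA at 54 h, against 406, 407 and 403 CPM with scrambled siRNA. At 30 h it had 614, 671 and 487 CPM after Foxl2 siRNA, against 464, 444 and 448 CPM with scrambled siRNA. All Foxl2 siRNA libraries were above the scrambled ones, and the lowest at 30 h was the one that kept the most Foxl2. The log2 changes were 0.53 ± 0.10 at 54 h and 0.39 ± 0.10 at 30 h, both called. The call at 30 h held in 1 of the 6 fits that left out 1 library, the one without that library, and was lost with edgeR fitted to the 6 libraries compared (adjusted p = 0.0851).

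**Figure D3:**
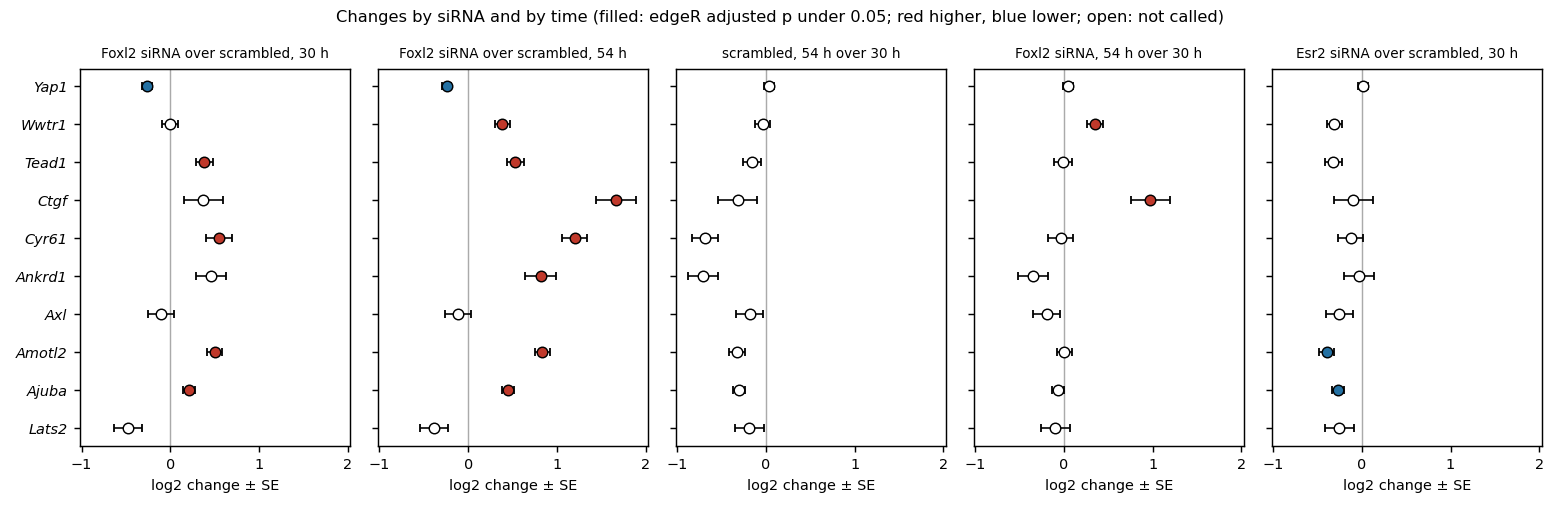
Log2 change ± SE of the 10 genes in 5 comparisons (edgeR, 15 libraries); filled points were called at an adjusted p under 0.05. Ctgf, Cyr61, Ankrd1, Amotl2, Ajuba, Tead1 and Wwtr1 lie right of 0 after Foxl2 siRNA at 54 h, and Cyr61 and Ankrd1 lie left of 0 in scrambled libraries at 54 h over 30 h, at -0.69 and -0.71.

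The scrambled libraries themselves differed with time. Between 54 h and 30 h of scrambled siRNA, the 54 h libraries of 8 of the 10 genes lay wholly below those of 30 h, where 11.2% of all genes did so; the exceptions were Yap1 and Wwtr1. The log2 difference, 54 h over 30 h, was -0.71 ± 0.17 for Ankrd1, -0.69 ± 0.14 for Cyr61, -0.33 ± 0.09 for Amotl2, -0.32 ± 0.22 for Ctgf and -0.30 ± 0.06 for Ajuba. It was -0.19 ± 0.16 for Lats2, -0.19 ± 0.15 for Axl, -0.16 ± 0.10 for Tead1, -0.04 ± 0.09 for Wwtr1 and 0.03 ± 0.05 for Yap1. The 15-library edgeR fit called 0 of the 10 genes, where 0.00671% of all genes were called; at an unadjusted p under 0.05 it had 4 of the 10 and 727 of all 14907 genes. DESeq2 called Cyr61, Ankrd1 and Ajuba, and edgeR on these 6 libraries alone called Cyr61, Ankrd1, Amotl2 and Ajuba, all lower at 54 h.

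Scrambled libraries of the same number deviated together between the times, with correlations of 0.632, 0.49 and 0.143. They were treated as pairs only where the number was used as a block. The main 15-library fit, which gave the log2 differences and SEs above, had no block. The labels state no pairing. Foxl2 siRNA and scrambled libraries at 30 h, not given a paired fit of their own, came close at 0.494, 0.439 and 0.066. The pairing is thus an assumption drawn from these same data. With the number as a block, the 15-library fit still called 0 of the 10 genes, and the fit on these 6 libraries called 8, all lower at 54 h, where it called 4.79% of all genes lower and 6.22% higher. That paired fit on 6 libraries was added after seeing the data, and it leaves few residual degrees of freedom. In it the log2 difference of Ankrd1 was -0.71 (edgeR adjusted p = 3.4e-05) and that of Cyr61 was -0.69 (edgeR adjusted p = 0.000686). Whether the scrambled difference was called thus depended on how the spread was estimated, while the log2 differences of these 2 genes stayed the same to 2 decimals.

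The change at 54 h after Foxl2 siRNA can be split by setting every group mean against scrambled siRNA at 30 h. Cyr61 stood at 142% of that level after Foxl2 siRNA at 54 h and 146% at 30 h, while scrambled siRNA at 54 h stood at 62.1%. Ankrd1 stood at 108% after Foxl2 siRNA at 54 h and 137% at 30 h, against 61.2% with scrambled siRNA at 54 h. In these means, the wider gap of both genes at 54 h came with a lower scrambled level and not with a higher level after Foxl2 siRNA. The widening itself was not called for Cyr61 (edgeR adjusted p = 0.289) or Ankrd1 (edgeR adjusted p = 0.681). Amotl2 stood at 142% after Foxl2 siRNA at either time, against 79.7% with scrambled siRNA at 54 h, and Ajuba at 110% and 116%, against 81.0%.

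Ctgf stood at 254% of the scrambled 30 h level after Foxl2 siRNA at 54 h and at 129% at 30 h, against 80.2% with scrambled siRNA at 54 h. Between 54 h and 30 h of Foxl2 siRNA, 2 of the 10 genes were called, both higher at 54 h, where 3.76% of all genes were called higher and 3.29% lower. These were Ctgf, with a log2 change of 0.98 ± 0.22, and Wwtr1, with 0.35 ± 0.09; Cyr61 had -0.04 ± 0.14, Amotl2 0.01 ± 0.09, Tead1 -0.01 ± 0.10, Ajuba -0.07 ± 0.06 and Ankrd1 -0.35 ± 0.17. Both calls were lost when edgeR was fitted to these 6 libraries alone (adjusted p = 0.163 for Ctgf and 0.212 for Wwtr1), and each held in 2 of the 6 fits that left out 1 library. Axl, at -0.20 ± 0.15, was not called with all libraries. It was called lower by edgeR without the second Foxl2 siRNA library at 54 h (-0.44, adjusted p = 0.0154). This was the call of 1 of the 6 fits that left out 1 library, with edgeR adjusted p up to 0.834. The fit without that library called 2637 of all genes, against 1050 with all libraries. With scrambled siRNA at 54 h, Yap1, Wwtr1 and Tead1 stood at 102%, 97.4% and 89.7% of their 30 h levels.

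The change at 54 h minus that at 30 h was tested directly. It was called in 0 of the 10 genes, where 0.00671% of all genes were called. At an unadjusted p under 0.05 it had 5 of the 10 (Ctgf, Cyr61, Wwtr1, Amotl2 and Ajuba) and 1510 of all genes. DESeq2 called Ctgf alone. The log2 size of this difference was 1.29 ± 0.31 for Ctgf, 0.65 ± 0.20 for Cyr61, 0.39 ± 0.12 for Wwtr1, 0.33 ± 0.12 for Amotl2 and 0.24 ± 0.09 for Ajuba. For Ankrd1 it was 0.36 ± 0.24 (edgeR unadjusted p = 0.155). The changes at the 2 times share no scrambled library, and those of the genes above were larger at 54 h in these means without passing the test.

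After Esr2 siRNA at 30 h, 0 of the 10 genes were called higher and 2 lower, where 1.13% of all genes were called higher and 3.11% lower. At an edgeR unadjusted p under 0.05 stood 4 of the 10, all lower, and 2625 of all 14907 genes in either direction. The libraries of 5 of the 10 lay wholly below those of scrambled siRNA, as did those of 15.2% of all genes. Amotl2 had 472, 592 and 489 CPM after Esr2 siRNA, against 693, 679.8 and 669 CPM with scrambled siRNA, a log2 change of -0.39 ± 0.09 that was called. Ajuba had 197, 216 and 205 CPM after Esr2 siRNA, against 261, 245 and 239 CPM with scrambled siRNA, a log2 change of -0.27 ± 0.06 that was called. Each of these calls held in 1 of the 6 fits that left out 1 library, the one without the second Esr2 siRNA library. Tead1 had 327, 388 and 371 CPM after Esr2 siRNA, against 464, 444 and 448 CPM with scrambled siRNA, and its log2 change of -0.32 ± 0.10 was not called by edgeR and was called by DESeq2 (adjusted p = 0.0454) and by edgeR on these 6 libraries alone (adjusted p = 0.0373).

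The second Esr2 siRNA library stood above the other two in the target genes. Ctgf had 425, 782 and 449 CPM after Esr2 siRNA, against 671, 519.8 and 580 CPM with scrambled siRNA, so that library was above all scrambled ones and the other two were below them. Ankrd1 had 423, 659 and 443 CPM after Esr2 siRNA, against 527, 520.4 and 515 CPM with scrambled siRNA, in the same pattern. Cyr61 had 297, 451 and 315 CPM after Esr2 siRNA, against 436, 354 and 369.9 CPM with scrambled siRNA. The log2 changes of -0.10 ± 0.22 for Ctgf, -0.03 ± 0.17 for Ankrd1 and -0.13 ± 0.14 for Cyr61 were not called. Wwtr1 had 175, 232 and 191 CPM after Esr2 siRNA, against 253, 244 and 243 CPM with scrambled siRNA, and its log2 change of -0.31 ± 0.09 was not called by edgeR with all libraries. It was called by DESeq2 (adjusted p = 0.0202), and by edgeR without the second library (-0.43, adjusted p = 0.00243). The latter was the call of 1 of the 6 fits that left out 1 library, with edgeR adjusted p up to 0.313. Without that library 1030 of all genes were called, against 631 with all libraries. Yap1 had 181, 193 and 184 CPM after Esr2 siRNA, at the scrambled level, with a log2 change of 0.02 ± 0.05.

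The siRNAs were also set against each other at 30 h, where 11.1% of all genes were called higher and 9.34% lower after Foxl2 siRNA than after Esr2 siRNA. Of the 10 genes, 5 were higher after Foxl2 siRNA and 1 was lower. Amotl2 differed by a log2 of 0.90 ± 0.09, Tead1 by 0.71 ± 0.10, Cyr61 by 0.67 ± 0.14, Ajuba by 0.48 ± 0.06 and Wwtr1 by 0.31 ± 0.09, all higher after Foxl2 siRNA, and Yap1 by -0.28 ± 0.05. The call of Wwtr1 held in 3 of the 6 fits that left out 1 library, and the calls of the other 5 genes in all 6. With edgeR fitted to these 6 libraries alone, Wwtr1 (adjusted p = 0.122) and Yap1 (adjusted p = 0.0534) lost their calls. Ankrd1 was not called by edgeR with all libraries and was called by DESeq2 (adjusted p = 0.0245). Ctgf, at 0.47 ± 0.22, was not called with all libraries. It was called by edgeR without the second Esr2 siRNA library (0.81, adjusted p = 0.00778). This was the call of 1 of the 6 fits that left out 1 library, with edgeR adjusted p up to 0.429. For Amotl2, Ajuba, Tead1, Ctgf, Cyr61 and Ankrd1, the Foxl2 siRNA mean lay above the shared scrambled mean and the Esr2 siRNA mean below it. For Yap1 the sides were reversed, with the Esr2 siRNA mean at 101% of the scrambled one. Only for Amotl2 and Ajuba were both changes from scrambled siRNA called.

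Other genes of the pathway were read from 6 lists. Of the conserved YAP/TAZ target signature outside the 10, 15 of 16 genes were tested. At 54 h after Foxl2 siRNA 9 rose and 1 fell, where 18.5% of all genes were called higher and 20.3% lower. Their median log2 change was 0.47 against -0.01 over all genes. At 30 h 4 rose and 1 fell, with a median of 0.31, where 6.34% of all genes were called higher and 6.65% lower. Igfbp3, which encodes a carrier of insulin-like growth factors, averaged 44.7 ± 13 CPM after Foxl2 siRNA at 54 h and 5.59 ± 3.3 CPM with scrambled siRNA (SD, n = 3 each), a log2 change of 3.00 ± 0.53. Nt5e, which encodes the ectoenzyme CD73 that makes adenosine, averaged 278 ± 64 CPM after Foxl2 siRNA at 54 h and 41.7 ± 2.6 CPM with scrambled siRNA (SD, n = 3 each), a log2 change of 2.73 ± 0.23. Fjx1 and Tgfb2, a secreted ligand of the TGF-beta family, rose at 54 h by log2 changes of 2.02 ± 0.39 and 1.65 ± 0.32. F3, the tissue factor that starts blood clotting, fell at 30 h, with 41.8 ± 0.96 CPM after Foxl2 siRNA and 72.4 ± 16 CPM with scrambled siRNA (SD, n = 3 each).

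Of these 15 signature genes, 0 were called after Esr2 siRNA. Between the scrambled times, where the 15-library fit called 1 gene of all, it called none of the 15, and their median log2 difference was 0.01. F3 had 44.0 ± 2.4 CPM with scrambled siRNA at 54 h and 72.4 ± 16 CPM at 30 h (SD, n = 3 each), a log2 difference of -0.72 ± 0.14, about the size of those of Cyr61 and Ankrd1. The paired fit on the 6 scrambled libraries called 3 of the 15 lower at 54 h (Crim1, F3 and Tgfb2) and 4 higher. Of all genes it called 4.79% lower and 6.22% higher. Of the other CCN family genes, 3 of 4 were tested. Wisp1, which encodes CCN4, averaged 354 ± 36 CPM after Foxl2 siRNA at 54 h and 92.7 ± 8.4 CPM with scrambled siRNA (SD, n = 3 each). It rose by a log2 change of 1.93 ± 0.16 at 54 h and 1.52 ± 0.16 at 30 h. After Esr2 siRNA it was called lower, with a log2 change of -0.62 ± 0.16 (edgeR adjusted p = 0.0462). Over all 6 lists 3 genes were called after Esr2 siRNA, and 0 to 2 when 1 library was left out in turn. Nov, which encodes CCN3, was called higher at 54 h at a low level, between 0.253 and 2.39 CPM after Foxl2 siRNA and between 0.238 and 0.531 CPM with scrambled siRNA, so its groups overlapped.

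The Hippo kinases and their scaffolds were 16 genes, all tested. At 54 h 2 rose and 3 fell after Foxl2 siRNA, with a median log2 change of 0.01, and at 30 h 0 rose and 2 fell. Of all genes, 18.5% were called higher and 20.3% lower at 54 h, and 6.34% and 6.65% at 30 h, so the counts are read as no result about the list as a whole. Sav1, the scaffold that joins the MST kinases to LATS, fell the most: it averaged 67.9 ± 17 CPM after Foxl2 siRNA at 54 h and 202 ± 5.4 CPM with scrambled siRNA (SD, n = 3 each). Its log2 change was -1.57 ± 0.17 at 54 h and -1.17 ± 0.17 at 30 h. Lats1, the paralogue of Lats2, had log2 changes of -0.05 ± 0.05 at 54 h and 0.07 ± 0.05 at 30 h and was not called. After Esr2 siRNA, 1 of the 16 was called higher and 0 lower. It was Stk38l, an NDR kinase related to LATS, with a log2 change of 0.33 ± 0.07 (edgeR adjusted p = 0.0189).

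Of 12 junction and LIM protein regulators, all tested, 5 rose and 0 fell at 54 h after Foxl2 siRNA. Of all genes, 18.5% were called higher and 20.3% lower. At 30 h 2 rose and 0 fell, where 6.34% and 6.65% of all genes were called. Crb2, a crumbs polarity protein, averaged 63.8 ± 9.4 CPM after Foxl2 siRNA at 54 h and 21.7 ± 1.5 CPM with scrambled siRNA (SD, n = 3 each). It rose by a log2 change of 1.56 ± 0.11 at 54 h and 1.05 ± 0.11 at 30 h. Amot, which encodes another motin, rose at 30 h by a log2 change of 0.72 ± 0.12. Of the TEAD factors and cofactors other than Tead1, 5 of 7 were tested, and 2 rose and 2 fell at 54 h, too few to set against those shares. At 30 h only Vgll4, a cofactor that competes with YAP for TEAD, was called in that list, with a log2 change of -0.41 ± 0.09. The last list held 17 SRF, MRTF and actin genes, a partner programme of YAP in tension responses. Of these, 7 were called higher and 0 lower than with scrambled siRNA at 54 h, to be set against the same shares of all genes. Their median log2 change was 0.35. At 30 h 1 was called higher and 1 lower, with a median of -0.15. These counts are near the 6.34% and 6.65% of all genes called there and are read as no result about the list. With scrambled siRNA these genes had a median log2 difference of -0.21 at 54 h over 30 h. The paired fit called 13 of the 17 lower and 1 higher at 54 h, where it called 4.79% of all genes lower and 6.22% higher. After Foxl2 siRNA the median difference between the times was 0.13. The gap at 54 h thus came with a lower scrambled level as well. After Esr2 siRNA 1 of these 17, Vcl, which encodes the focal adhesion protein vinculin, was called lower. Its log2 change was -0.31 ± 0.08 (edgeR adjusted p = 0.0364).

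**Figure D4:**
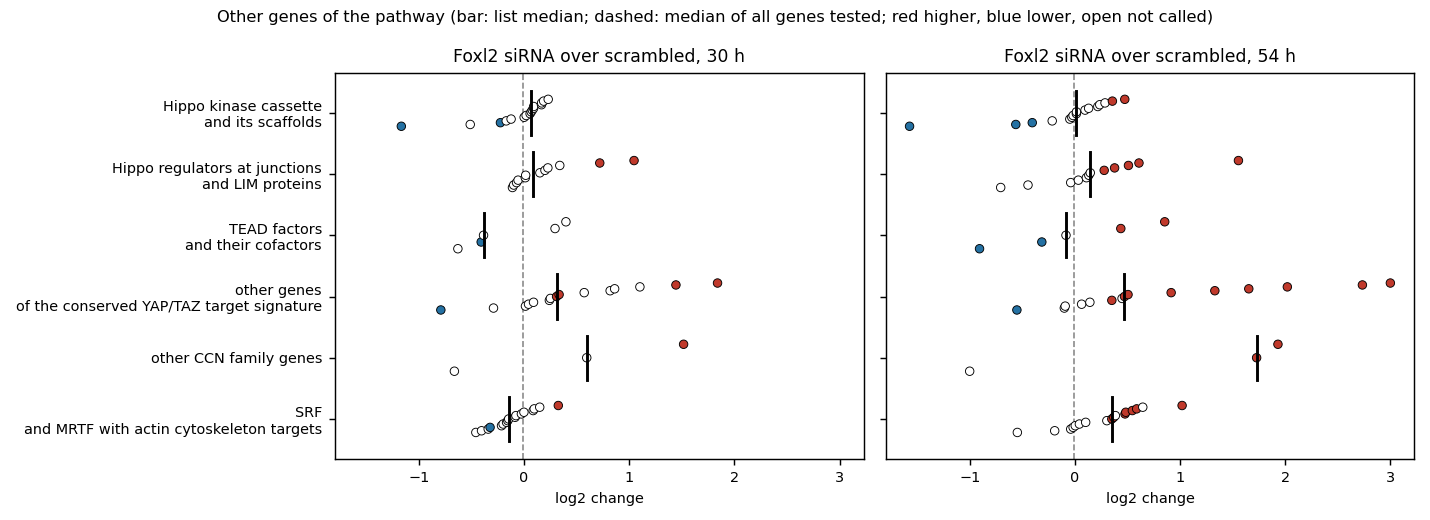
Log2 change of each tested gene of 6 pathway lists after Foxl2 siRNA at 30 h and 54 h (points; filled where called), with list medians (bars) and the median of all genes (dashed). The YAP/TAZ signature list has its median at 0.47 at 54 h and Igfbp3 at 3.00, and the lowest Hippo scaffold point is Sav1 at -1.57.

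The 12 granulosa markers all had counts, led by Inha at up to 2410 CPM; Fshr, Amh and Cyp19a1 reached at most 0.948, 1.87 and 3.89 CPM. They summed to 2594 to 3421 CPM after Foxl2 siRNA at 54 h, against 3579.5 to 3665 CPM with scrambled siRNA. Of the 12, 1 was called higher and 6 lower, where 18.5% of all genes were called higher and 20.3% lower. At 30 h the sum was 2865 to 3757 CPM after Foxl2 siRNA and 2768 to 3066 CPM after Esr2 siRNA, against 3443 to 3594 CPM with scrambled siRNA. Theca and stroma markers summed to 1248 to 2113 CPM after Foxl2 siRNA at 54 h, against 616 to 1346 CPM with scrambled siRNA. Of the 9 tested, 1 was called higher (Star, at 295 to 847 CPM after Foxl2 siRNA, against 286 to 306 CPM with scrambled siRNA), 1 was called lower and 7 were not called, with a median log2 change of -0.17. Cyp17a1 did not pass 0.265 CPM in any library. Smooth muscle and pericyte markers summed to 146 to 292 CPM after Foxl2 siRNA at 54 h, against 136 to 313 CPM with scrambled siRNA. Endothelial, leukocyte and oocyte sums did not exceed 14.2, 6.92 and 5.00 CPM in any library.

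Ctgf and Cyr61 had the widest range of group means of the 10 genes, 1.67 and 1.24 on the log2 scale, and the genes with the most similar 4 changes from scrambled siRNA at 30 h were looked up for each. For Ctgf these were E230013L22Rik, Tbkbp1, Pcdh1, Lhx6 and Slc24a3, with root mean square differences of 0.032 to 0.13 on the log2 scale over 5 group means. For Cyr61 they were Plagl1, Spry1, Vpreb1, Slc1a6 and Fam46b, with differences of 0.065 to 0.12. Spry1, an inhibitor of receptor tyrosine kinase signalling, had a log2 difference from scrambled siRNA at 30 h of 0.65 in the earlier and 0.70 in the later Foxl2 siRNA group, and of -0.69 with scrambled siRNA at 54 h.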

How the data were processed

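Poly(A) RNA of 15 libraries was read as single 75-base reads from stranded libraries. Raw read counts per gene were deposited by the authors for each library, with no normalization. Tools named in the submitters' processing notes are TopHat2, DESeq2 and bcl2fastq 2.15.0, with build mm10; how reads were counted, and on which strand, is not given in the sources used here. In 1 scrambled library at 30 h, 15 symbols turned into dates were restored from the shared gene order. Spike-ins were left out.

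Members, lists and comparisons were chosen with earlier results of these data known. CPM were scaled by TMM in edgeR 4.0.16 (R 4.3.3). One quasi-likelihood fit of 5 group means (10 residual degrees of freedom, 14907 genes after filterByExpr) gave two-sided p-values with Benjamini-Hochberg adjustment over all genes, checked on simulated data. SE is the log2 change over the root of F. Exact permutation tests of single levels were not used, since 3 libraries a side allow no p under 0.1. A count of 0 allows up to 3 counts, a limit for counting error only. Alternatives were DESeq2 1.42.0, upper-quartile scaling, no filter, only the groups compared, a replicate block and leaving out each library.

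The main fit had no block. Scrambled libraries were treated as paired by the numbers of the titles only in the fits with a block, although the labels state no pairing. Their deviations from the group means correlated across genes at 0.632, 0.49 and 0.143 between the times. Libraries of unlike number were not compared in this way. In no other tested comparison did all 3 pairs pass 0.1. Of the pathway lists, genes called in a comparison were named, at most the 8 with the largest change, and markers and Lats1 were named beside them after their values were seen. Gene lengths and positions are those of GENCODE M21; promoters are RefSeq's.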

Additional observations from a re-analysis of the deposited data

Results flagged for a closer look

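The 54 h libraries of Ctgf lay on opposite sides of the 30 h libraries in the 2 arms, without overlap. After Foxl2 siRNA the 3 libraries at 54 h (1088 to 1856 CPM) lay above those at 30 h (701 to 805 CPM), while with scrambled siRNA those at 54 h (465 to 488 CPM) lay below those at 30 h (519.8 to 671 CPM). The log2 difference of 0.98 ± 0.22 after Foxl2 siRNA was called in the 15-library edgeR fit, lost its call with only the groups compared (adjusted p = 0.163) and held it in 2 of the 6 fits that left out 1 library. That of -0.32 ± 0.22 with scrambled siRNA was not called in the 15-library fit (adjusted p = 1.0) and was called in the paired edgeR fit on the scrambled libraries (adjusted p = 0.00594). The difference between the arms was 1.29 ± 0.31 on the log2 scale. It did not pass edgeR's quasi-likelihood test (adjusted p = 0.177; 0.016 to 0.414 when 1 library was left out in turn) and passed with DESeq2 (adjusted p = 0.00602). The lowest Foxl2 siRNA library at 54 h was the one that kept the most Foxl2.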

How the results depend on the processing

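Upper-quartile scaling left all 70 calls of the 10 genes in 7 comparisons on their side of the threshold, and no direction of a called change turned under any alternative run. DESeq2 called 1109 genes after Esr2 siRNA (main count 631), 4 of the 10 genes (2) and 7 list genes (3). For scrambled siRNA at 54 h over 30 h it called 66 genes (1), 3 of the 10 (0) and 5 list genes (0). For Foxl2 siRNA at 54 h over 30 h it called 1715 genes (1050) and 16 list genes (8), and for the difference between the times 198 genes (1), 1 of the 10 (0) and 7 list genes (0). Without the low-count filter, 1 of the 10 was called after Esr2 siRNA and 0 genes between the scrambled times. With only the groups compared, 2 of the 10 were called after Foxl2 siRNA at 30 h (5), 1131 genes and 12 list genes after Esr2 siRNA, and 206 genes, 4 of the 10 and 4 list genes between the scrambled times. That fit called 0 genes, 0 of the 10 and 0 list genes for Foxl2 siRNA at 54 h over 30 h, and 1625 genes (3042) and 12 list genes (21) for Foxl2 siRNA against Esr2 siRNA. The cause of these differences was not tested.

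With the replicate block, 3 genes were called between the scrambled times, and Ajuba lost its call after Foxl2 siRNA at 30 h (adjusted p = 0.0543); the block changed no other call of the 10 genes. The block with only the scrambled libraries, added after seeing the data, called 1586 genes, 8 of the 10 and 28 list genes. Outside the scrambled libraries, pairing by number was not established either. Same-numbered Foxl2 siRNA and scrambled libraries correlated at 0.066 to 0.494 at 30 h and 0.015 to 0.397 at 54 h. Esr2 siRNA and scrambled ones correlated at -0.474 to 0.322.

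Leaving out 1 library at a time gave 898 to 3016 genes, 2 to 5 of the 10 and 6 to 23 list genes after Foxl2 siRNA at 30 h. At 54 h it gave 4424 to 6752 genes, 8 to 10 of the 10 and 27 to 38 list genes. After Esr2 siRNA it gave 238 to 1030 genes, 0 to 3 of the 10 and 0 to 2 list genes, and between the scrambled times 0 of each. For Foxl2 siRNA at 54 h over 30 h it gave 328 to 2637 genes, 0 to 3 of the 10 and 4 to 18 list genes. For the difference between the times it gave 1 to 904 genes, 0 to 1 of the 10 and 0 to 8 list genes, and for Foxl2 against Esr2 siRNA 1767 to 3647 genes, 5 to 8 of the 10 and 12 to 23 list genes.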
